A study of Mus musculus with 29 samples.

Results

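The genes that take up and break down glucose, oxidise pyruvate and store glycogen were followed through heart failure and recovery in mouse hearts. They were 34 genes chosen by symbol, all of which were found among the 29955 genes of the expression table. Of these, 32 had a mean of at least 0.5 FPKM (mapped fragments per kilobase of transcript, scaled to the size of the library) over the libraries and were tested with 12759 genes in all. The 2 others, the aldolases Aldoa and Aldoc, fell under this filter and are described by their values.

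RNA sequencing values of C57BL6 mice, labelled as whole heart and as whole ventricle, were used from 24 libraries. Heart failure (HF) was induced in males of 3 months (C57BL/6J in the methods) with 0.3 mg/ml L-NAME, which blocks nitric oxide synthases, and 1% NaCl in the drinking water over 5 weeks, and with angiotensin II from an osmotic pump at 0.7 mg/kg per day starting 1 week in. HF week 3 (n = 2) and HF week 5 (n = 3) were taken during induction, and Recovery weeks 7 (n = 2), 9 (n = 2), 11 (n = 3), 13 (n = 2) and 19 (n = 5) after it had ended, when the water was normal again and the pump was empty. Control week 19 (n = 5) held mice of the age of the last recovery group, so HF week 5 and its control here differ by 14 weeks of age. Failure and age cannot be told apart in that comparison. Recovery week 19 against HF week 5 has the same age gap. HF week 3 and Recovery weeks 7 to 13 were younger than Control week 19, and Recovery weeks 7 to 13 were older than HF week 5. In these comparisons too, age cannot be told apart from failure or recovery. The 4 labelled controls of week 5 were not analysed here. The methods name the apex as the frozen tissue, describe 4 cohorts, and do not link a library to its cohort.

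Glycolysis splits glucose into pyruvate in the cytosol, and muscle uses its own forms of several of its enzymes (Pfkm, Pgam2, Eno3). Pyruvate is either turned into lactate by lactate dehydrogenase or enters the mitochondrion, where the pyruvate dehydrogenase complex makes acetyl-CoA from it and kinases switch that complex off. The adult heart burns mostly fatty acids, with glucose, lactate and its glycogen store as the other fuels, and the failing heart is known for changes in this choice of fuel.

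In HF week 5, 21 of the 32 tested members were lower than in Control week 19 and 0 were higher at a Benjamini-Hochberg adjusted p under 0.05 (limma on log2(FPKM + 0.5), over all genes tested). Over all genes, 12.4% were called lower and 11.6% higher. The falls took in hexokinase 2, phosphofructokinase of muscle and liver type, enolase 3, both lactate dehydrogenase subunits, all 4 tested members of the pyruvate dehydrogenase complex and 4 of 5 glycogen genes. The members' median log2 fold change was -0.59 against 0.04 for all genes tested. Groups did not overlap for 18 members that were lower and for 1 that was higher (Pfkp), where 14.7% and 14.8% of all genes stood apart in these directions. By Recovery week 19, 19 members were higher than in HF week 5 and 0 lower (12.3% and 12.0% of all genes), and none was called against Control week 19. Without HF week 5 library 1, which stands apart as described next, 13 members were called lower in HF, where 6.45% of all genes were called lower and 4.21% higher in the same fit. The same fit called 13 higher and 1 lower in Recovery week 19 against HF week 5 (6.90% and 5.27% of all genes). With library 3 as the only HF week 5 library, assumed to vary like the other groups, 6 members were called lower in HF (Hk2, Pfkm, Dlat, Pfkfb1, Pygb and Gys1), where 2.21% of all genes were, and the median was -0.42. That fit called 6 higher in Recovery week 19 (2.39% of all genes) and 5 in Recovery weeks 7 to 13 (1.59%) than in HF week 5.

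**Figure D1:**
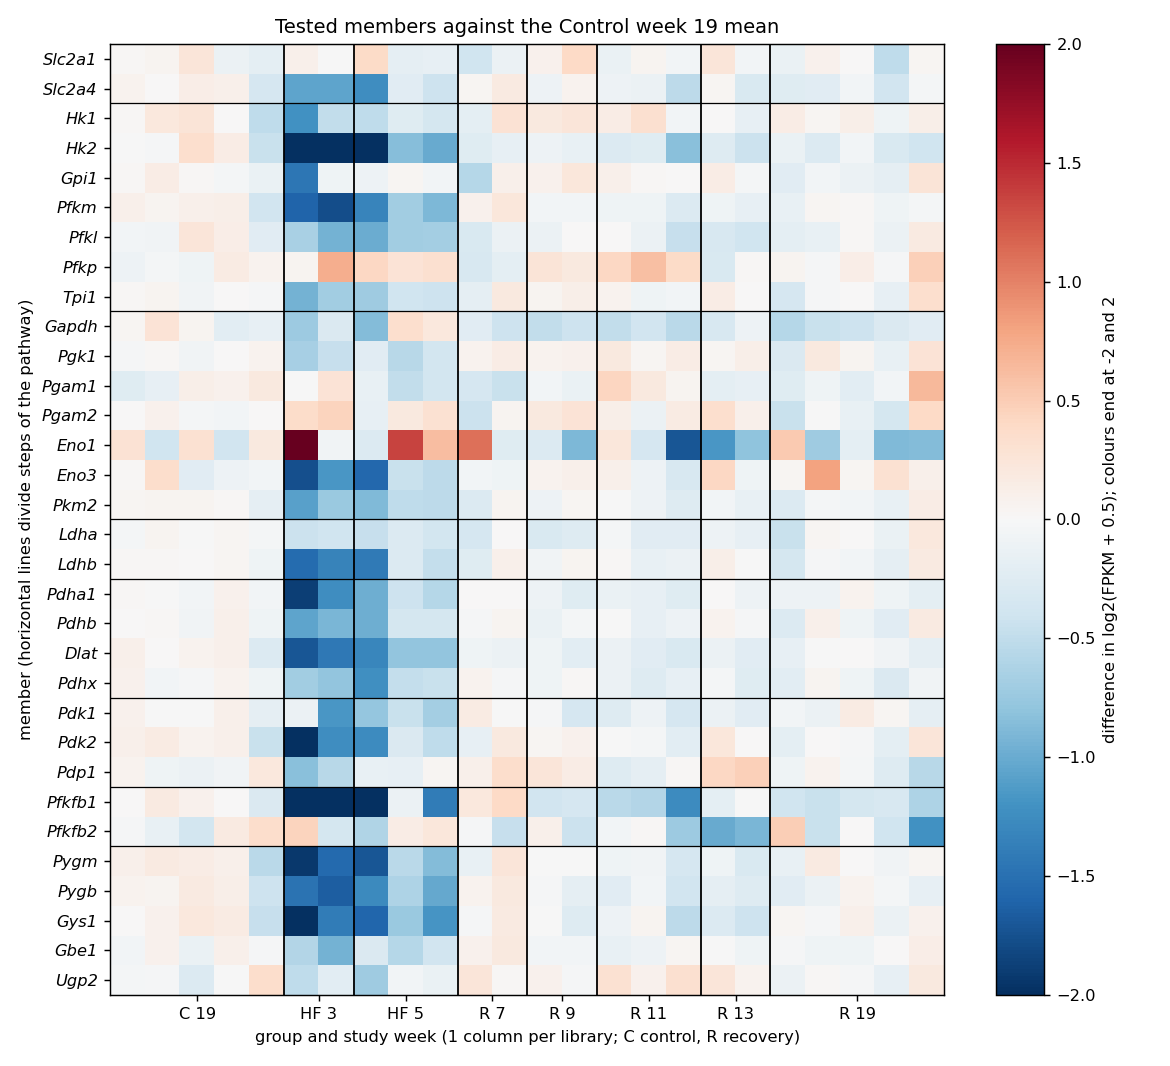
Difference of log2(FPKM + 0.5) from the Control week 19 mean for the 32 tested members (rows, in the order of the pathway) in each of 24 libraries (columns, by group and study week). Blue is lower and red higher. The 5 HF libraries are mostly blue, and the recovery libraries are mostly pale.

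HF week 5 library 1, both HF week 3 libraries and, at a lower level, HF week 5 library 2 held RNA of atrial marker genes. Myl7, the atrial light chain of myosin, was at 18388, 152 and 6.16 FPKM in HF week 5 libraries 1, 2 and 3, at 1805 and 5773 FPKM in HF week 3, and at most 3.56 FPKM in the recovery and control libraries. Myl4 and Sln, which also mark the atrium, were at 11435 and 9904 FPKM in HF week 5 library 1, at 116 and 147 FPKM in library 2 and at 8.05 and 1.29 FPKM in library 3. In control they reached 6.63 and 0.988 FPKM. The summed level of the 10 listed atrial markers was 82558, 2563 and 2261 FPKM in HF week 5, and 134 to 406 FPKM in Control week 19. Much of the sum in HF was Nppa, a peptide that the failing ventricle also makes, at 42004, 2100 and 2214 FPKM in HF week 5. Correlation across genes was 0.956 and 0.952 between HF week 5 library 1 and the other two, against 0.984 between those.

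The members were also low in the HF week 5 library with the least atrial RNA. In HF week 5 library 3, with Myl7 at 6.16 FPKM and Sln at 1.29 FPKM, 22 of 32 members were below every control library, where 27.4% of all genes were. In library 2 the count was 20 (24.5% of all genes), and in library 1 it was 27 (33.1%). Their median difference from the control mean was -0.88, -0.38 and -0.42 in libraries 1, 2 and 3. Library 1 was thus the lowest of them, and the part of atrial tissue in its distance from the others was not tested.

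**Figure D2:**
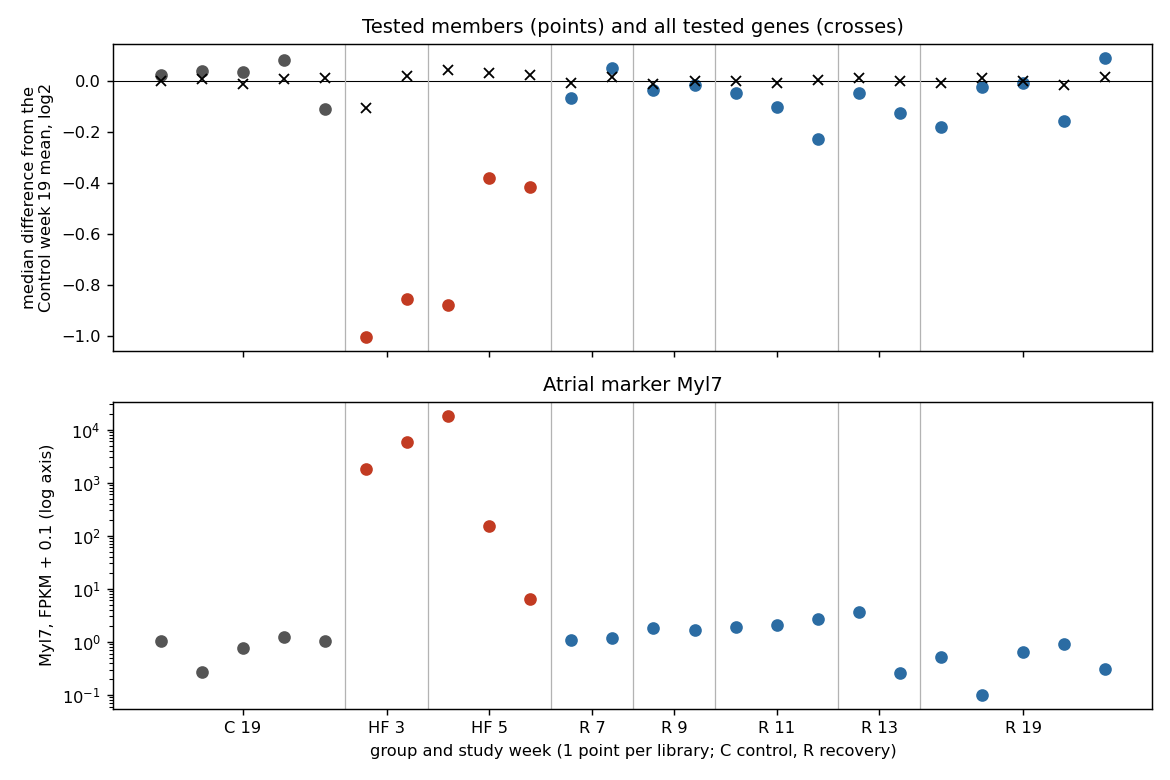
Upper panel, median difference from the Control week 19 mean in log2(FPKM + 0.5) over the 32 tested members (points) and over all genes tested (crosses), 1 point per library. Lower panel, the atrial marker Myl7 on a log axis. HF week 5 libraries 2 and 3 sit at -0.38 and -0.42 with Myl7 at 152 and 6.16 FPKM.

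Markers of fibroblasts were higher in HF, and the sum for endothelium was above every control but library 5. The 10 fibroblast markers summed to 426 to 819 FPKM in HF week 5 and 292 to 410 FPKM in Control week 19, and the 10 endothelial markers to 2953 to 4253 FPKM in HF week 5 against 2023 to 2401 FPKM in 4 controls and 4256 FPKM in Control library 5. Most of this sum is Fabp4 (mean 2546 FPKM in HF and 1953 FPKM in control). Egfl7, Emcn and Pecam1 had means of 177, 63.4 and 67.6 FPKM in HF against 89.8, 32.75 and 45.7 FPKM in control. The means of Tek, Esam, Tie1 and Ly6c1 were also higher in HF. Cdh5 had the same mean of 45.7 FPKM in both groups, and Kdr had a lower mean in HF (13.7 against 15.3 FPKM). The macrophage and leukocyte markers (9 genes) summed to 307 to 585 FPKM against 250 to 428 FPKM, and the 10 smooth muscle and pericyte markers to 935 to 1438 FPKM against 888 to 1237 FPKM, both with overlap. Most of the last sum is Des, which cardiomyocytes also express (mean 898 FPKM in both groups), while of the others Acta2 and Tagln had means of 102 and 58.9 FPKM in HF against 51.1 and 32.4 FPKM in control, and Rgs5 and Abcc9 of 15.1 and 10.7 FPKM against 22.4 and 17.8 FPKM. The cardiomyocyte markers without Myh6 (9 genes) summed to 27956, 49368 and 44281 FPKM in HF week 5 libraries 1, 2 and 3, against 44141 to 52488 FPKM in Control week 19. Myh6 itself is listed at 0 in HF week 5, Recovery week 19 and Control week 19, although heart muscle expresses it, and the cardiomyocyte marker sum was therefore read without it. In whole tissue, fewer cardiomyocytes and less RNA per cardiomyocyte cannot be told apart, and the part of cell makeup in the members' falls was not tested. Skeletal muscle markers (10 genes) summed to 696 FPKM in HF week 5 library 1 and to 104 and 89.1 FPKM in libraries 2 and 3. In Control week 19 they summed to at most 70.6 FPKM. Myl1 made up most of this sum, with means of 270.8 FPKM in HF week 5 and 52.01 FPKM in control. Casq1, Tnnt3 and Actn3 also had higher means in HF. The skeletal myosins Myh1 and Myh2 had HF means of 0.0053 FPKM each, and Myh4 was at 0. The sum is therefore not read as skeletal muscle cells.

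Promoters are shown for 3 members that were lower in HF week 5, because glycolytic genes are textbook targets of hypoxia-inducible factor. The 3 are the hexokinase typical of muscle, the muscle glycogen phosphorylase and a lactate dehydrogenase subunit. Only promoters that hold the motif marked below are shown, so their matches are no result. Another Ldha promoter, at chr7:46846832-46847131, holds no match and is not shown. The 250 bases before the start are given from RefSeq (GRCm38.p6), 5′ to 3′, with ACGTG, the core of the hypoxia response element, or the E-box CACGTG in capitals on either strand (CACGT is ACGTG on the other strand). Hk2 lies on the minus strand at chr6:82774455-82774704, Pygm on the plus strand at chr19:6384158-6384407 and Ldha on the plus strand at chr7:46845554-46845803.
Hk2: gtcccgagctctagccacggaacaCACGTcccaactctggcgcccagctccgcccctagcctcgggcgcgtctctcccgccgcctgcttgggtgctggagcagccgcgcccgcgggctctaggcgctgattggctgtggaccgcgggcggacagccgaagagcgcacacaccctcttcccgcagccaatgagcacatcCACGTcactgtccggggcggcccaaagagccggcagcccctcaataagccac
Pygm: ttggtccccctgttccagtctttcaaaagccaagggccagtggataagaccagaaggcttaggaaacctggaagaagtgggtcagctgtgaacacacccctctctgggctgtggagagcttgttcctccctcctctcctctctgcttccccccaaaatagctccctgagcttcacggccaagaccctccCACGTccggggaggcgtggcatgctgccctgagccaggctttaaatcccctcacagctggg
Ldha: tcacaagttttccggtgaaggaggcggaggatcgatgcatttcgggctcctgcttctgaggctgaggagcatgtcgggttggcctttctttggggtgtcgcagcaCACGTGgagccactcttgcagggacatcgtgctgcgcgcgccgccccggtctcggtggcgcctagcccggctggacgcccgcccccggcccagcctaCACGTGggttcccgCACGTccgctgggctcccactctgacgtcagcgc

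In windows from 250 bases before to 50 after a start, ACGTG was found in 20 of the 51 promoters listed for 32 members (39.2%) and in 19.6% of all 32851 promoters of the table. CACGTG, each match of which also counts as ACGTG on both strands, was found in 4 of the 51 and in 7.15% of all. Of the 20 members lower in HF week 5 that had a promoter in the table, 9 held ACGTG, as did 6 of the 10 that were tested and not called. These are matches of letters and not sites bound by a factor.

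Glucose enters muscle through Slc2a4 (GLUT4), the insulin-responsive transporter, and Slc2a1 (GLUT1), the transporter found in most cells. Slc2a4 was at 58.4, 118 and 103 FPKM in HF week 5, at 110 to 152 FPKM in Control week 19 with a median of 146, and at 106 to 135 FPKM in Recovery week 19. Its HF and control libraries overlapped, the highest HF library lying above the lowest control. Slc2a4 fell by 0.63 on the log2 scale in HF (SE 0.18, adjusted p = 0.015 in limma), but the difference was -0.32 with an adjusted p of 0.17 without HF week 5 library 1. Slc2a1 was at 7.26 ± 1.83 FPKM (SD, n = 3) in HF week 5 and 7.12 ± 0.894 FPKM (SD, n = 5) in Control week 19, a log2 difference of 0.01 with a 95% interval of -0.31 to 0.33.

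Hexokinase traps glucose by phosphorylation, and the heart expresses the Hk1 form and the insulin-inducible Hk2 form. Hk2 was at 7.91, 21.3 and 19.1 FPKM in HF week 5, and at 38.8, 38.2, 49.2, 43.4 and 28.55 FPKM in Control week 19. In Recovery week 19 it was at 35.6, 32.3, 37.4, 31.5 and 29.6 FPKM. All HF libraries were below all control and all late recovery libraries. Hk2 fell by 1.37 on the log2 scale (SE 0.23, fold 0.388, adjusted p = 0.00049 in limma), and the difference was -0.94 (adjusted p = 0.0028) without HF week 5 library 1. It was higher by 1.14 (SE 0.23, adjusted p = 0.0019) in Recovery week 19 than in HF week 5, or by 0.70 (adjusted p = 0.015) without that library. Hk1 was at 20.0, 24.2 and 22.6 FPKM in HF week 5 and at 20.1 to 34.7 FPKM in control, a difference of -0.37 that did not pass (adjusted p = 0.12).

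Phosphofructokinase sets the pace of glycolysis, and its muscle (Pfkm), liver (Pfkl) and platelet (Pfkp) forms were all measured. Pfkm was at 139, 215 and 186 FPKM in HF week 5, and at 373, 362, 374, 376.5 and 267 FPKM in Control week 19. In Recovery week 19 it was at 313, 356, 353, 327 and 337 FPKM, so the highest HF library was below the lowest library of both other groups. Pfkm fell by 0.97 in HF (SE 0.13, fold 0.51, adjusted p = 0.00010 in limma), and it was higher by 0.93 (SE 0.13, adjusted p = 0.00015) in Recovery week 19. The difference of Pfkm in HF was -0.80 (adjusted p = 0.0010) without HF week 5 library 1. Pfkl, at 26.15, 32.3 and 32.4 FPKM against 44.7 to 61.9 FPKM, fell by 0.79 (SE 0.13, adjusted p = 0.00041). Pfkp, at 14.5, 13.1 and 13.6 FPKM, lay above all 5 controls (9.96 to 12.2 FPKM), with a log2 difference of 0.33 (SE 0.14, adjusted p = 0.087), and did not pass the test. Pfkp was called higher with only the groups compared (adjusted p = 0.034) and without the HF week 3 libraries (adjusted p = 0.028).

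**Figure D3:**
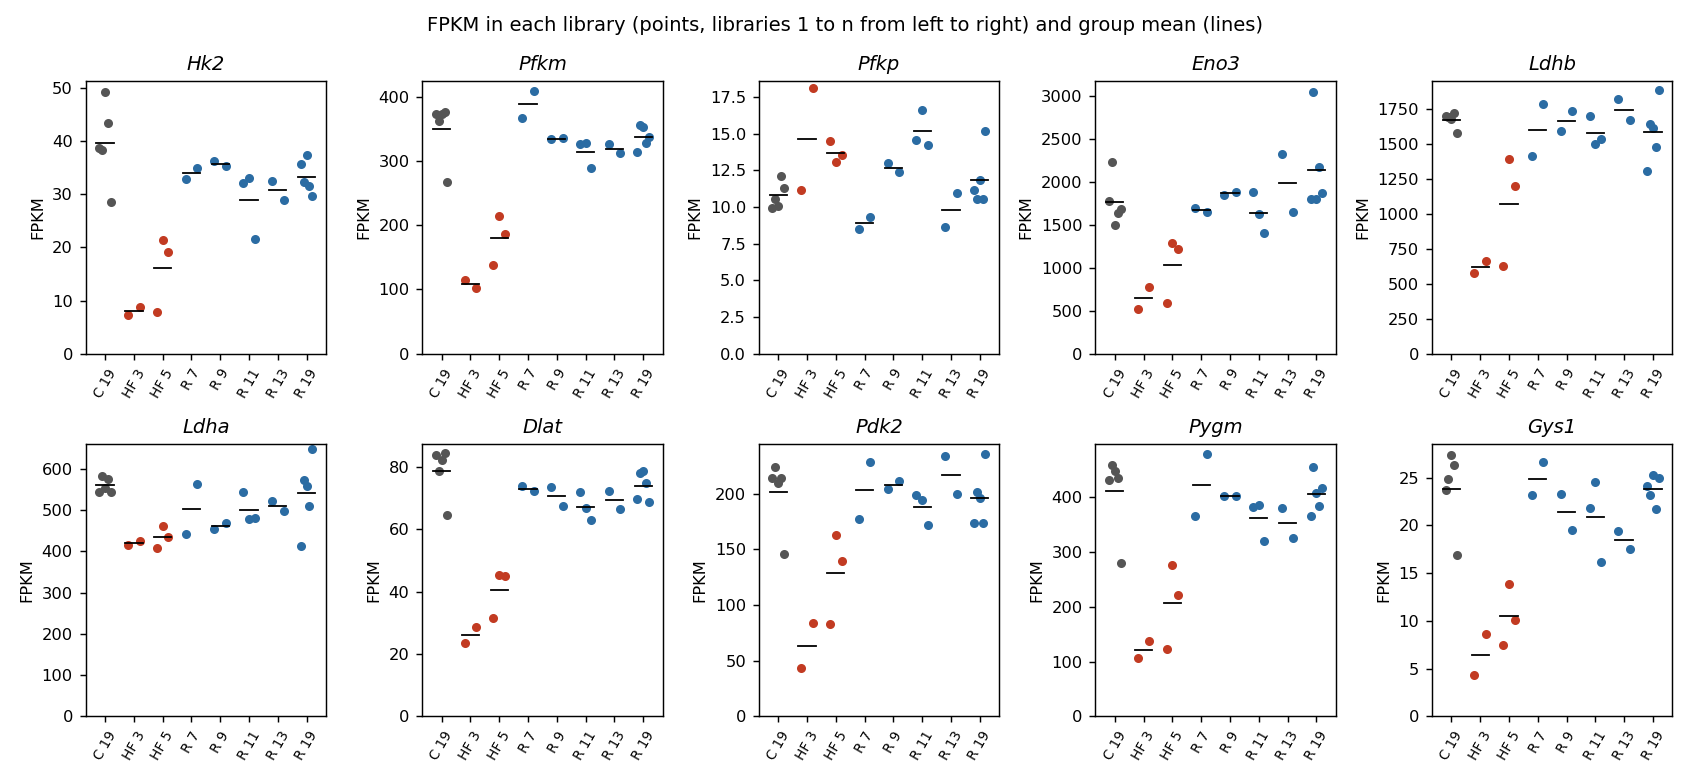
FPKM of 10 members in each library (points) with the group mean (line), from 0, for Control week 19 (C 19), HF weeks 3 and 5 and Recovery weeks 7 to 19 (R). Hk2, Pfkm, Dlat and Gys1 in HF week 5 lie below every control and late recovery library.

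Pfkfb1 and Pfkfb2 make and remove fructose 2,6-bisphosphate, the activator of phosphofructokinase. Pfkfb1 was at 2.31, 10.8 and 4.11 FPKM in HF week 5, at 11.8, 13.3, 12.5, 11.8 and 9.52 FPKM in Control week 19, and at 7.46 to 9.23 FPKM in Recovery week 19. Its HF libraries were widely spread, and library 2 lay within the controls. Pfkfb1 fell by 1.21 in HF (SE 0.27, adjusted p = 0.0039 in limma), or by 0.76 (adjusted p = 0.048) without library 1. In Recovery week 19 it was higher than in HF by 0.78 (adjusted p = 0.043), which was 0.33 (adjusted p = 0.40) without library 1. Pfkfb2, the form typical of heart, was at 11 ± 3.29 FPKM (SD, n = 3) in HF and 11.4 ± 2.29 FPKM (SD, n = 5) in control and was not called.

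Gpi1, which turns glucose 6-phosphate into fructose 6-phosphate, was at 277, 308 and 287 FPKM in HF week 5 and at 272 to 331 FPKM in Control week 19. Its log2 difference was -0.04 with an interval of -0.47 to 0.39. Tpi1, the triose phosphate isomerase, was at 403, 502 and 498 FPKM in HF week 5, below all 5 controls (633 to 691 FPKM), and fell by 0.51 (SE 0.14, adjusted p = 0.010 in limma). Without HF week 5 library 1 its difference was -0.41 and did not pass (adjusted p = 0.081).

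Aldolase and the next enzyme, glyceraldehyde 3-phosphate dehydrogenase, could not be followed. Aldoa, the muscle form of aldolase, is listed at 0 in 22 of 24 libraries and at 0.0767 FPKM at most. Aldoc, the brain form, is listed at 0 to 2.20 FPKM. Eno1, the enolase of most tissues, is listed at 0.496 to 20.7 FPKM. Gapdh is listed at 0.482 to 1.77 FPKM, a level far under that of a gene every cell uses. Of the 50-base windows of the longest GENCODE M21 coding transcript of Gapdh, 82.5% also occur in transcripts of other genes, as do 72.2% of those of Eno1, 68.0% of those of Pgk1 and 13.5% of those of Aldoa. How the authors' counting treated such reads is not stated, its part in these low values was not tested, and the values of Gapdh, Eno1 and Aldoa are given as listed and not as levels.

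In lower glycolysis 3 of 7 tested members fell in HF: Pgk1, Eno3 and Pkm2. Pgk1, phosphoglycerate kinase, makes ATP from 1,3-bisphosphoglycerate. It was at 200, 159 and 181 FPKM in HF week 5, below all controls (223 to 246 FPKM), and fell by 0.39 (SE 0.12, adjusted p = 0.022 in limma). Without HF week 5 library 2 the adjusted p of Pgk1 was 0.11.

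Eno3, the muscle enolase, and Ldhb were the members with the highest levels per length in control, at medians of 1684 and 1696 FPKM. Eno3 was at 591, 1289 and 1215 FPKM in HF week 5, at 1780, 2233, 1493, 1636 and 1684 FPKM in Control week 19, and at 1800 to 3042 FPKM in Recovery week 19. The groups did not overlap in either comparison, and library 1 was at about the level of HF week 3 (516 and 778 FPKM). Eno3 fell by 0.84 (SE 0.24, adjusted p = 0.015 in limma), and without HF week 5 library 1 the difference was -0.48 and did not pass (adjusted p = 0.16). It was higher by 1.10 in Recovery week 19 (SE 0.24, adjusted p = 0.0029), and by 0.74 (adjusted p = 0.032) without that library.

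Pkm2, the older symbol under which the table lists pyruvate kinase of muscle (Pkm), makes pyruvate and covers both splice forms of the gene. It was at 437, 566 and 561 FPKM in HF week 5, at 715.5 to 839.5 FPKM in Control week 19 and at 664 to 891 FPKM in Recovery week 19, without overlap of HF with either. Pkm2 fell by 0.64 (SE 0.13, adjusted p = 0.0020 in limma), or by 0.52 (adjusted p = 0.022) without HF week 5 library 1. Pgam2, the muscle phosphoglycerate mutase, was high in every group (957 to 1764 FPKM) and differed by 0.11 between HF and control, with an interval of -0.24 to 0.46. Pgam1, its other form, was at 43.3 ± 5.22 FPKM (SD, n = 3) in HF and 54.9 ± 7.16 FPKM (SD, n = 5) in control (adjusted p = 0.15).

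Lactate dehydrogenase interconverts pyruvate and lactate, and the heart carries mostly the Ldhb subunit. Ldhb was at 628, 1392 and 1202 FPKM in HF week 5, at 1701, 1696, 1677, 1725 and 1578 FPKM in Control week 19, and at 1308 to 1887 FPKM in Recovery week 19. HF lay below the controls in all 3 libraries but overlapped late recovery. Ldhb fell by 0.72 (SE 0.19, adjusted p = 0.0097 in limma), and without library 1 the difference was -0.37 (adjusted p = 0.097). Ldha, at 408, 461 and 434 FPKM against 543 to 583 FPKM, fell by 0.37 (SE 0.12, adjusted p = 0.037), a call lost in 7 of 18 alternatives, all of them with libraries left out (adjusted p = 0.15 without HF week 5 library 1).

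All 4 members of the pyruvate dehydrogenase complex fell in HF week 5 and were higher again in Recovery week 19. Dlat, the acetyltransferase core, was at 31.5, 45.3 and 44.9 FPKM in HF, at 83.6, 78.7, 82.1, 84.3 and 64.6 FPKM in Control week 19, and at 69.5, 77.8, 78.6, 74.9 and 68.8 FPKM in Recovery week 19. HF lay below all other libraries of both groups. Dlat fell by 0.96 (SE 0.12, fold 0.514, adjusted p = 5.7e-05 in limma), or by 0.79 (adjusted p = 0.00045) without HF week 5 library 1, and was higher by 0.88 (SE 0.12, adjusted p = 0.00011) in Recovery week 19.

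The other subunits fell by less. Pdha1, the alpha subunit of the E1 enzyme, was at 139, 206 and 184 FPKM in HF and 263 to 291 FPKM in control, and fell by 0.65 (SE 0.13, adjusted p = 0.0017 in limma). Pdhb, the beta subunit, was at 229, 350 and 350 FPKM in HF and 424 to 482 FPKM in control, and fell by 0.56 (adjusted p = 0.0059). Pdhx, which anchors the E3 enzyme, was at 19, 32.2 and 33.0 FPKM in HF and 42.6 to 47.7 FPKM in control, and fell by 0.72 (adjusted p = 0.0011). None of these groups overlapped. Without HF week 5 library 1 the calls of Pdha1 (adjusted p = 0.021) and Pdhx (-0.46, adjusted p = 0.0063) were kept and that of Pdhb was not (-0.36, adjusted p = 0.065).

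Kinases Pdk1 and Pdk2 switch the complex off and the phosphatase Pdp1 switches it on. Pdk2 was at 82.9, 163 and 140 FPKM in HF week 5, at 214, 224, 210, 214 and 146 FPKM in Control week 19, and at 174 to 235 FPKM in Recovery week 19. HF overlapped the controls through control library 5. Pdk2 fell by 0.69 (SE 0.21, adjusted p = 0.024 in limma), or by 0.40 (adjusted p = 0.23) without HF week 5 library 1. Pdk1, at 13.3, 16.8 and 14.2 FPKM against 20.3 to 24.6 FPKM, fell by 0.63 (SE 0.16, adjusted p = 0.0092), or by 0.56 (adjusted p = 0.062) without it. Pdp1 was at 4.95 ± 0.427 FPKM (SD, n = 3) in HF and 5.32 ± 0.555 FPKM (SD, n = 5) in control, and its difference of -0.09 had an interval of -0.37 to 0.18.

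Of the 5 glycogen genes 4 fell in HF, and Pygm, Pygb and Gys1 fell by more than the members' median. Pygm, the muscle glycogen phosphorylase, was at 124, 277 and 222 FPKM in HF week 5, at 432, 459, 448, 435 and 279.5 FPKM in Control week 19, and at 366, 456, 408, 385 and 416 FPKM in Recovery week 19. HF library 2 was just under the lowest control. Pygm fell by 1.04 (SE 0.20, fold 0.487, adjusted p = 0.0016 in limma), or by 0.70 (adjusted p = 0.017) without HF week 5 library 1. It was higher by 1.04 (SE 0.20, adjusted p = 0.0015) in Recovery week 19. Pygb, the brain phosphorylase that the heart also uses, was at 80.7, 128 and 96.5 FPKM against 146.5 to 222 FPKM in control, and fell by 0.97 (SE 0.14, adjusted p = 0.00018).

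Gys1, the muscle glycogen synthase, was at 7.53, 13.9 and 10.1 FPKM in HF week 5, at 23.7, 24.9, 27.4, 26.3 and 16.9 FPKM in Control week 19, and at 24.1, 23.2, 25.3, 21.7 and 24.9 FPKM in Recovery week 19. The HF libraries were below all others. Gys1 fell by 1.17 (SE 0.20, fold 0.445, adjusted p = 0.00059 in limma), or by 0.96 (adjusted p = 0.0085) without HF week 5 library 1, and was higher by 1.19 (SE 0.20, adjusted p = 0.00051) in Recovery week 19. Gbe1, the branching enzyme, was at 8.78, 7.13 and 8.17 FPKM against 9.855 to 11.7 FPKM and fell by 0.41 (SE 0.10, adjusted p = 0.0057). Ugp2, which makes UDP-glucose, was at 34.9, 55.2 and 52.1 FPKM against 47.5 to 73.3 FPKM and was not called (-0.30, adjusted p = 0.15).

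**Figure D4:**
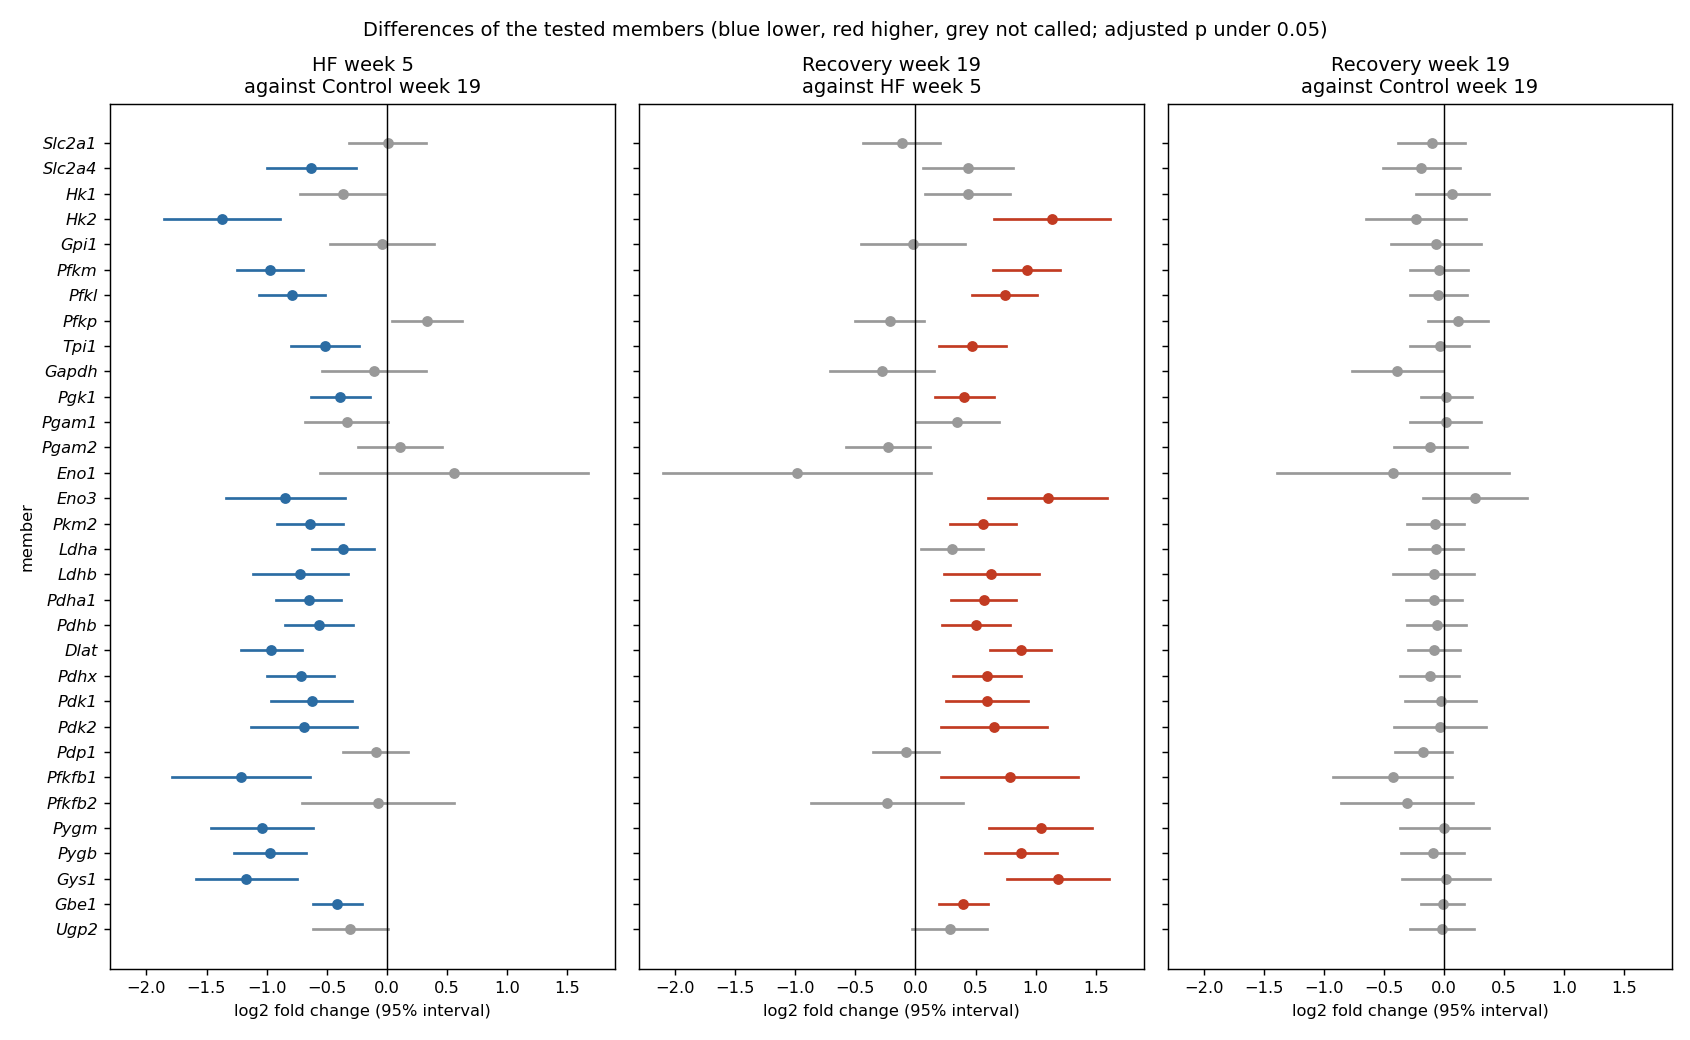
Log2 fold change with 95% interval for the 32 tested members in HF week 5 against Control week 19, Recovery week 19 against HF week 5 and Recovery week 19 against Control week 19. Blue is called lower, red called higher and grey not called at an adjusted p under 0.05. There are 21 blue members in the first panel, 19 red in the second and none coloured in the third.

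In Recovery week 19 against HF week 5 the 19 members that rose were all among the 21 that had fallen, with a median over the 32 of 0.49 against -0.04 for all genes tested. Both comparisons use the same HF libraries, so the second is no independent support for the first. Slc2a4 (0.44, adjusted p = 0.080 in limma) and Ldha (0.30, adjusted p = 0.082) did not pass. HF and Recovery week 19 did not overlap for 17 members that were higher and for 0 that were lower, where 14.1% and 12.7% of all genes stood apart. Without HF week 5 library 1, 6 members lost the call: Tpi1 (0.37, adjusted p = 0.10), Ldhb (0.28, 0.20), Pdhb (0.30, 0.12), Pdk1 (0.53, 0.072), Pdk2 (0.37, 0.26) and Pfkfb1. Pdhx kept it at 0.34 (adjusted p = 0.031), against 0.60 with all libraries. Gapdh, as listed, was called lower without that library (-0.66, adjusted p = 0.013).

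No member was called between recovered and control hearts of week 19. At the adjusted threshold limma called 0 of 32, and over all genes 0.0235% higher and 0% lower. At an unadjusted p under 0.05 it called 1, Gapdh, with a difference of -0.39 in its listed values, where 0.862% of all genes were lower and 2.01% higher. The members' median difference was -0.07 against -0.01 for all genes tested, and 25 of 32 had a lower mean in recovery, as did 53.8% of all genes. Gapdh, as listed, and Pfkfb1 were the 2 members without overlap, both lower in recovery, where 0.243% of all genes stood apart lower and 0.925% higher. The intervals still allow moderate differences: for Hk2 the difference was -0.23 with an interval of -0.65 to 0.19, for Pfkm -0.05 (-0.29 to 0.20), for Dlat -0.09 (-0.30 to 0.13), for Pygm 0.00 (-0.37 to 0.37) and for Gys1 0.02 (-0.35 to 0.38). Pfkfb1, at 7.46 to 9.23 FPKM in Recovery week 19 and 9.52 to 13.3 FPKM in control, differed by -0.43 (interval -0.92 to 0.07), which the test did not call.

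The 2 libraries of Recovery week 7 had members' medians of -0.07 and 0.05 against the control mean. Hk2 was at 32.9 and 34.9 FPKM in Recovery week 7, Pfkm at 367 and 409 FPKM, Pygm at 365.5 and 479 FPKM and Dlat at 73.8 and 72.1 FPKM, each above all HF week 5 libraries. Over Recovery weeks 7 to 13 (mean of 4 groups), 22 members were higher than in HF week 5 and 0 lower, where 11.2% and 10.9% of all genes were called, and the median was 0.54. When HF week 5 library 1 was left out, 13 were higher and 1 lower (5.39% and 3.93% of all genes in that fit). Against Control week 19 limma called 0 members (0.0549% of all genes higher and 0.0157% lower), and at an unadjusted p it called 1, again Gapdh (-0.36), where 3.53% of all genes were lower and 3.36% higher. Some Recovery libraries were lower than the rest: week 11 library 3 had Hk2 at 21.6 FPKM and Pfkfb1 at 4.61 FPKM, and its median over the members was -0.23. Its fibroblast markers summed to 785 FPKM, the highest of the recovery libraries, and its macrophage and leukocyte markers to 652 FPKM. Recovery week 13 library 2 and Recovery week 19 library 5 had higher macrophage and leukocyte sums (717 and 675 FPKM), with members' medians of -0.13 and 0.09. The part of cell makeup in these values was not tested in the recovery libraries.

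At HF week 3, while induction was still under way, most members were low. Against Control week 19, 24 of 32 were lower and 1 was higher, where 27.6% and 23.1% of all genes were called, and the median was -0.81. Pfkfb1, at 1.95 and 1.93 FPKM, fell by 2.32 (SE 0.31, adjusted p = 1.1e-05 in limma). Hk2, at 7.20 and 8.76 FPKM, fell by 2.23 (SE 0.26, adjusted p = 2.7e-06), and Gys1, at 4.30 and 8.64 FPKM, by 1.86 (SE 0.23, adjusted p = 4.6e-06). Dlat was at 23.5 and 28.8 FPKM and Pdha1 at 73.9 and 115 FPKM, below every HF week 5 library, while Pygm, at 106 and 138 FPKM, overlapped HF week 5 library 1. Pfkp, at 11.2 and 18.1 FPKM, was the member called higher (0.39, adjusted p = 0.049), with library 1 within the range of the controls. This call was lost without HF week 3 library 2 (0.05, adjusted p = 0.81), without control library 1, 2, 3 or 5, with either other scaling, without the filter on low values and with only the groups compared. Both HF week 3 libraries hold atrial RNA as given above, library 1 has 12816 genes above 0 against 16339 to 18091 in the other 23, and the 2 correlate at 0.885 across genes. Their fibroblast markers summed to 857 and 993 FPKM and their skeletal muscle markers to 317 and 458 FPKM, above all controls. Of the 10 skeletal muscle markers, 5 had means under 1 FPKM in HF week 3. Myh4 was at 0 there, and the sum is not read as skeletal muscle cells. The part of cell makeup in the falls was not tested. Weeks 3 and 5 of HF were not tested against each other.

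The balance between isoforms was compared as the log2 ratio of FPKM + 0.5 within a library, for 10 of the 11 listed pairs, and aldolase could not be computed. Hk1 made up 53.2% to 71.7% of the summed hexokinase FPKM in HF week 5 and 40.1% to 46.7% in Control week 19. Pfkp made up 7.33% ± 1.9 (SD, n = 3) of Pfkp and Pfkm in HF and 3.05% ± 0.60 (SD, n = 5) in control. Ldha made up 39.4%, 24.9% and 26.5% of Ldha and Ldhb in HF libraries 1, 2 and 3, against 24.2% to 25.6% in control, so its share was high in library 1.

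Exact two-sided permutation tests over libraries called 0 of 10 pairs in HF week 5 against Control week 19 after Benjamini-Hochberg adjustment over the pairs. At an unadjusted p under 0.05 these exact tests gave 3, Hk1/Hk2 (difference 1.00), Pfkp/Pfkm (1.3) and Eno1/Eno3 (1.41, with Eno1 as listed), each without overlap at p = 0.0357 and an adjusted p of 0.12. That p is the smallest 3 against 5 libraries allow, and 8 of 10 pairs would have to reach it to pass the adjustment. In Recovery week 19 against HF week 5 the same 3 pairs had an exact p = 0.0357 in the opposite direction and 0 passed. In Recovery week 19 against Control week 19 0 passed, and Hk1/Hk2 alone had an unadjusted p under 0.05 (exact p = 0.024, difference 0.30, adjusted p = 0.24).

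**Figure D5:**
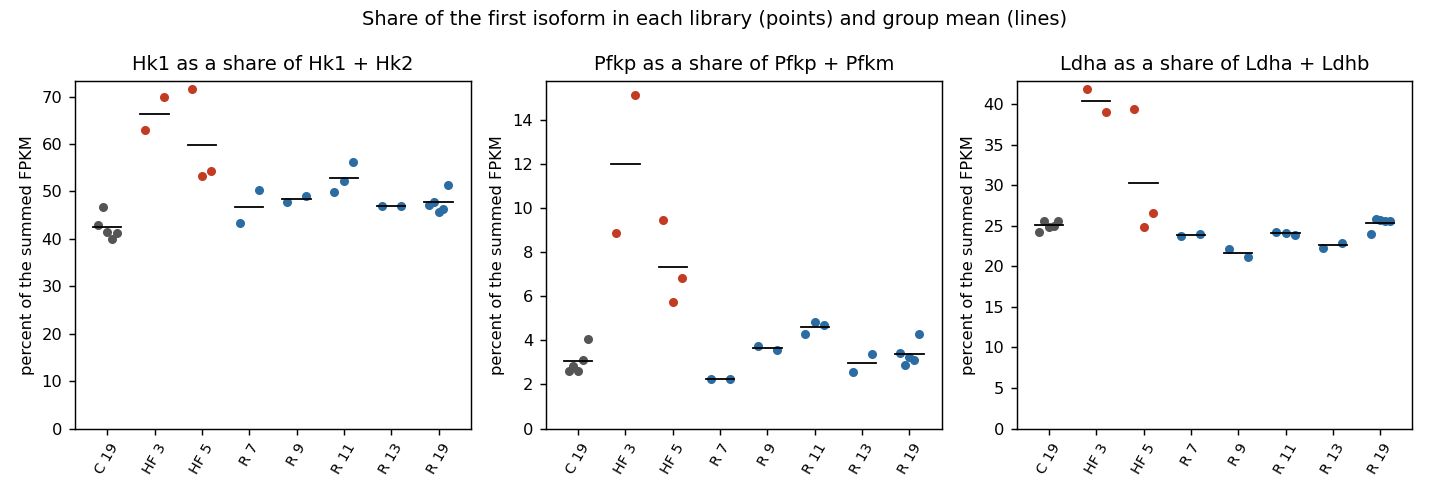
Share of Hk1, Pfkp and Ldha in the summed FPKM of their pair, in percent, for each library (points) with the group mean (line). Hk1 is at 53.2% to 71.7% in HF week 5 and 40.1% to 46.7% in Control week 19, and the high Ldha share in HF week 5 is library 1.

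Other genes of the pathway were taken from a list of 81, of which 78 are in the table and 69 were tested. In HF week 5 against Control week 19, 22 of them were lower and 6 higher, where 12.4% and 11.6% of all genes were, and the median was -0.26. Without HF week 5 library 1, 14 were lower and 2 higher, Tkt and Vhl, of the 68 still tested, where 6.45% and 4.21% of all genes were. Dld, the E3 enzyme of the pyruvate dehydrogenase complex, was at 54.9, 89.0 and 93.2 FPKM in HF against 130 to 150 FPKM in control and fell by 0.87 (adjusted p = 0.00029 in limma). Got1, an enzyme of the malate-aspartate shuttle that carries electrons of glycolytic NADH into mitochondria, was at 162, 218 and 197 FPKM against 324 to 432 FPKM and fell by 1.06 (adjusted p = 4.3e-05).

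Some of the listed genes act on glycogen. Epm2a, laforin, a phosphatase of glycogen, was at 0.647, 0.651 and 0.794 FPKM in HF against 1.92 to 4.36 FPKM in control and fell by 1.74 (adjusted p = 0.00031 in limma). The glycogen-targeting subunits of protein phosphatase 1 Ppp1r3a, Ppp1r3b and Ppp1r3d, 3 of the 5 listed, fell by 0.67, 0.79 and 0.53 (adjusted p = 0.023, 0.014 and 0.028), and of these Ppp1r3b alone kept its call without HF week 5 library 1 (adjusted p = 0.047). Ppp1r3c (-0.62, adjusted p = 0.087) and Ppp1r3e (-0.30, adjusted p = 0.68) were not called. Pygl, the liver phosphorylase, was higher by 0.55 (adjusted p = 0.031), at 3.16, 1.95 and 1.96 FPKM against 1.04 to 1.73 FPKM, a level per length far under that of Pygm. Without that library the difference of Pygl was 0.36 (adjusted p = 0.24).

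The 6 listed genes called higher were Pck1, Pck2, Pdk3, Pygl, Tkt and Vhl. Pck1, the carboxykinase of gluconeogenesis, was at 3.39, 3.82 and 0.0646 FPKM in HF week 5 and at most 0.145 FPKM in control, so library 3 lay within the controls. It passed the filter on low values only through the HF libraries in which it was high, and its call is not read as a result. Pdk3 was at 7.96, 1.12 and 1.80 FPKM against 0.521 to 0.978 FPKM (1.31, adjusted p = 0.020 in limma), and without library 1 the difference of this kinase of the complex was 0.60 (adjusted p = 0.23). Pck2, the mitochondrial carboxykinase, was higher by 0.50 (adjusted p = 0.032), or 0.35 (adjusted p = 0.22) without library 1. Tkt, transketolase of the pentose phosphate path, was higher by 0.65 (adjusted p = 0.0012), or 0.62 (adjusted p = 0.011) without it. Vhl, which marks hypoxia-inducible factor for breakdown, was higher by 0.36 (adjusted p = 0.0045), or 0.38 (adjusted p = 0.016) without it. Pdk4, the kinase that fasting and fatty acids induce, was at 107, 103 and 22.5 FPKM in HF and 29.2 to 59.6 FPKM in control and was not called (0.49, adjusted p = 0.41). Egln3, an oxygen-sensing prolyl hydroxylase, was at 10.5, 16.5 and 15.6 FPKM in HF against 30.2 to 48.7 FPKM in control and fell by 1.43 (adjusted p = 0.00014). It was also the 1 listed gene still lower in Recovery weeks 7 to 13 than in control (-0.97, adjusted p = 0.0087).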

How the data were processed

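The authors aligned paired-end reads of poly(A) RNA with TopHat2 to mm9 and computed FPKM with Cuffdiff, per the labels and methods. The deposited FPKM values have 1 column per library. The annotation and the scaling between libraries are not given in the sources used here. Actc1, Mb, Myl2 and Nppa, besides Myh6, are also listed at 0 throughout a group. The 10 highest genes of a library held 27.9% to 37.4% of its FPKM in Recovery weeks 7 to 13. In HF week 5, Recovery week 19 and Control week 19 they held 14.6% to 18.8%. Each column was given its group from the week that its name holds, without a link to a labelled animal, so p-values measure the spread between libraries. Of the columns, 5 named for the week 5 controls were not used, because 4 such samples are labelled, and the planned comparison with Control week 5 was not run. Recovery week 9 has 2 columns for 3 labelled samples. Absolute depth is unknown. The commonest ratio between libraries of values under 0.3 FPKM put the relative depth of 23 libraries at 0.728 to 1.39 of Control week 19 library 1, and HF week 3 library 1 had too few such values.

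Genes whose mean reached 0.5 FPKM were fitted as log2(FPKM + 0.5) with limma 3.58.1 in R 4.3.3, 1 mean per group over 24 libraries (16 residual degrees of freedom, eBayes with trend). All tests were two-sided, and a gene was called at a Benjamini-Hochberg adjusted p under 0.05 over 12759 genes. Fold changes are on the log2(FPKM + 0.5) scale. Differences of Recovery weeks 7 to 13 weight 4 groups equally. Isoform ratios were tested with scipy 1.17.1. Every member is reported, those called with values in each library or their range. The members and lists were chosen with earlier results of these data known. Alternatives were other pseudocounts and filters, other scalings, an unadjusted p, only the groups compared, and leaving out libraries. Fits without genes listed at 0 throughout a group, without HF week 5 libraries 1 and 2, and of the other pathway genes without library 1 were chosen after seeing the data. The fit of HF week 5 against Control week 19 was tested on simulated data. Promoters are from RefSeq (GRCm38.p6) and transcripts from GENCODE M21, both of another build than the authors'.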

Additional observations from a re-analysis of the deposited data

Results flagged for a closer look

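In groups of 5 libraries, a library was set apart when its gap to the nearest exceeded 0.71 of the range of its group (Dixon's limit). Over 64 groups of values of the tested members this set 8 apart, where chance gives about 1 in 20 for a single group. Members measured in the same libraries are not independent, so the count cannot be read against that rate. Control week 19 library 5 accounts for 6 of them, all low: Pfkm at 267 FPKM (others 362 to 376.5), Pkm2 at 715.5 FPKM (others 818 to 839.5), Dlat at 64.6 FPKM (others 78.7 to 84.3), Pdk2 at 146 FPKM (others 210 to 224), Pygm at 279.5 FPKM (others 432 to 459) and Pygb at 146.5 FPKM (others 203 to 222). In that library 24 of 32 members were below the control mean, and its endothelial markers summed to 4256 FPKM against 2023 to 2401 FPKM in the other controls. The part of cell makeup in these values was not tested. Recovery week 19 library 5 accounts for the other 2, both high: Pfkp at 15.2 FPKM (others 10.5 to 11.8) and Pgam1 at 85.6 FPKM (others 46.1 to 52.3).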

How the results depend on the processing

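Of 3872 values of single members under the alternatives, 3610 kept their direction and their side of the threshold, 125 lost a call, 32 gained one and 105 values that were not called moved. No called member changed direction. Leaving out 1 library at a time gave 13 to 22 members called in HF week 5 against Control week 19, 14 to 19 in Recovery week 19 against HF week 5, 22 to 26 in HF week 3 against Control week 19, 14 to 22 in Recovery weeks 7 to 13 against HF week 5, and 0 in both comparisons of recovery with control. In HF week 5 against Control week 19, 1 member was higher with only the groups compared and without the HF week 3 libraries (Pfkp), and without the filter on low values (an aldolase). The counts of 13, 14 and 14 are those without HF week 5 library 1. With only the groups compared, Recovery week 19 against HF week 5 gave 13, of which 12 were among the 19 called before. Pdhx was among those that lost the call (adjusted p = 0.0502 in limma). An alternative chosen after seeing the data left out HF week 5 libraries 1 and 2, which leaves 1 HF library, and gave 6 members against Control week 19, 6 for Recovery week 19 and 5 for Recovery weeks 7 to 13. An unadjusted p gave 1 member in each comparison of recovery with control. For the isoform ratios, leaving out a HF week 5 library was not run as a test, since 2 against 5 libraries cannot go below an exact permutation p of 0.0952. No paired analysis was possible because the columns carry no link to a labelled replicate. Precision is limited by 2 or 3 libraries per HF group, by unknown depth and by the control of week 5, which was not analysed here.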
